A study of Mus musculus with 2 samples.

Results

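The genes followed in the heart were 8 known from lymphocytes, 5 of T lymphocytes (Skap1, Themis, Bcl11b, Cd247 and Prkcq) and 3 of B lymphocytes (Bank1, Ighm and Pax5). Whether their reads came from lymphocytes or from other cells was not tested. The members were taken by name, but they were chosen with earlier results of these data known. Of the 25235 genes listed in at least 1 of the libraries, 7 were members, all 7 of them listed in both. Neither table has a row named Ighm, which encodes the constant part of the IgM heavy chain, and it was not analysed here. In RefSeq on GRCm38.p6, Ighm is a C_region at chr12:113418826-113422730. A search by name for segments of the immunoglobulin light chains and of the T cell receptor alpha and beta chains found 0 rows. These receptor chains therefore carried no values. Names of heavy chain segments were searched only in part, and those of the T cell receptor gamma and delta chains were not searched.

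The study made single-nucleus libraries from 1 adult heart (9 weeks) and 1 aged heart (78 weeks) of female mice, F1 hybrids of a C57BL/6J mother (BL6) and a CAST/EiJ father (CAST). Both hearts are labelled C57BL/6JxCAST/EiJ in genotype and as a cross of C57BL/6J∆Xist-/+ with CAST/EiJ in breed, and the study describes them as wild-type females. Frozen hearts gave nuclei that were sorted on the DNA dye DRAQ7 and not on any cell type. Only nuclei whose active X chromosome was BL6 were pooled, into 1 pseudobulk per age, so each value mixes all cell types of such nuclei. A read counts only if it overlaps a single nucleotide polymorphism (SNP) between BL6 and CAST, which assigns it to an allele.

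T lymphocytes recognise peptides on other cells with a receptor that signals through the CD3 chains and through CD247, the zeta chain, whose tyrosine motifs recruit kinases. Below the receptor, the adaptor SKAP1 couples activation to integrin adhesion, THEMIS tunes receptor signalling in developing thymocytes, and the kinase PRKCQ (protein kinase C theta) leads to NF-kB. BCL11B is the zinc finger factor that commits progenitors to the T lineage. In B lymphocytes, PAX5 maintains lineage identity and the scaffold BANK1 couples the B cell receptor to calcium release. A healthy heart holds few lymphocytes, most of its leukocytes being macrophages. PRKCQ is also known from skeletal muscle.

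In the adult library 24015 genes were listed with 9747535 reads, and in the aged library 22691 genes with 5805807. Reads of a gene were scaled to 1000000 reads of its library (RPM), so 1 read is worth 0.103 RPM in the adult and 0.172 RPM in the aged library. Intervals are exact 95% Poisson intervals for RPM and exact conditional intervals for the ratio of aged to adult RPM. They cover counting error only, reads not being known to be independent molecules. Each age being 1 library, the difference between ages could not be tested, and the spread between animals is unknown. A gene was called lower or higher in the aged library when its RPM differed by at least 1.5-fold. Over the 16119 genes with at least 20 summed reads, 17.0% were called lower and 28.1% higher, and the median ratio was 1.13 (0.18 on the log2 scale). The tissue label was met by its markers, Ttn and Ryr2 having 115497 and 117632 adult reads and 39896 and 80439 aged reads.

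Of the 5 T lymphocyte genes, 4 were called lower in the aged library, Themis, Bcl11b, Skap1 and Cd247, and Prkcq was not called. These 4 were also the members whose Poisson intervals were separate and lower in the aged library, which held for 16.3% of all genes. Of the 2 B lymphocyte genes with values, neither was called. None of the 7 members was called higher. Intervals that were separate and higher in the aged library were found for 1 member, Prkcq, and for 29.2% of all genes. The median ratio was 0.293 over the 5 T genes, beside 1.13 over all genes. The 2 B genes lay on either side of 1, Bank1 at 0.819 and Pax5 at 1.41, with a median of 1.12.

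**Figure D1:**
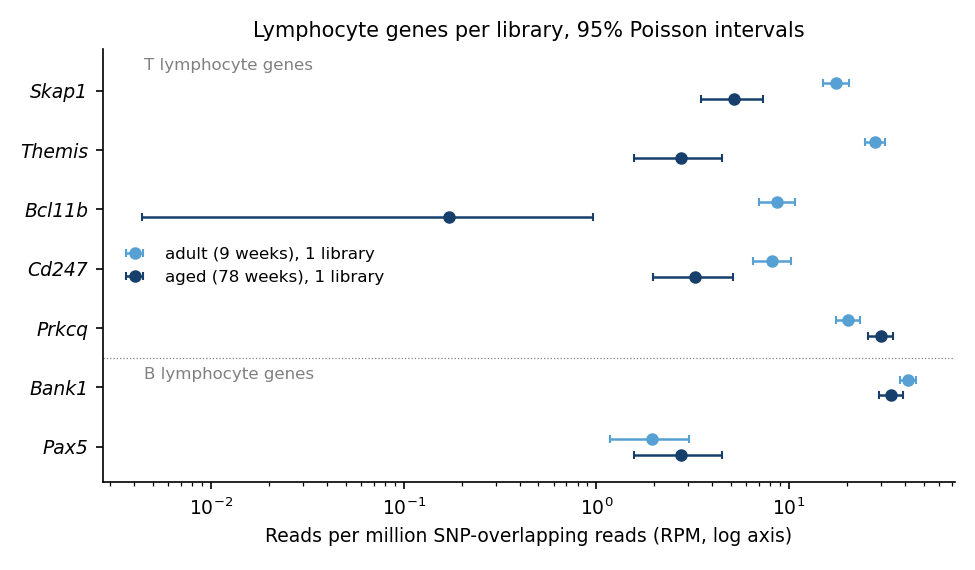
RPM (log axis) of the 7 listed members in the adult and the aged library, each point 1 library with its 95% Poisson interval. Skap1, Themis, Bcl11b and Cd247 lie lower in the aged library with separate intervals, Prkcq lies higher, and the intervals of Bank1 and Pax5 overlap.

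Promoters are shown for the T genes with the lowest ratios for which a sequence was at hand (Bcl11b, Themis and Cd247) and for Prkcq, which differed from them in direction. RefSeq on GRCm38.p6 gave a window of 250 bases before to 50 after a transcript start for 6 of the 8 members. They are printed 5′ to 3′ on the strand of the gene, in the letters of the BL6 allele. The Bcl11b window lies at chr12:108003365-108003664 (minus strand) and the Themis window at chr10:28668110-28668409 (plus strand). The Cd247 window lies at chr1:165788431-165788730 (plus strand) and the Prkcq window at chr2:11172132-11172431 (plus strand). Each of these starts lies inside the counted locus, that of Cd247 the furthest from its edge. Capitals mark matches, on either strand, to short core letters of 5 factor families of lymphocyte development. The letters searched for RUNX factors, which act in T cell development, were TGTGGT. For the ETS family, which includes factors of both lineages, they were GGAAGT. The E box of the basic helix-loop-helix factors was searched as CAGGTG. For TCF/LEF, the family of Tcf7 and Lef1, the letters were CTTTGA. For the GATA family, to which the T cell factor GATA3 belongs, the letters were AGATAA.
Bcl11b: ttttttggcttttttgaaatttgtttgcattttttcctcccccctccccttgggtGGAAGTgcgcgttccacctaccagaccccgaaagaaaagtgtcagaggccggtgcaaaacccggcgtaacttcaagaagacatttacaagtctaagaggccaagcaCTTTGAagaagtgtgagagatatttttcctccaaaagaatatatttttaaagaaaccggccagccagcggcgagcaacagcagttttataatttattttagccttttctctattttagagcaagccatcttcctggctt
Themis: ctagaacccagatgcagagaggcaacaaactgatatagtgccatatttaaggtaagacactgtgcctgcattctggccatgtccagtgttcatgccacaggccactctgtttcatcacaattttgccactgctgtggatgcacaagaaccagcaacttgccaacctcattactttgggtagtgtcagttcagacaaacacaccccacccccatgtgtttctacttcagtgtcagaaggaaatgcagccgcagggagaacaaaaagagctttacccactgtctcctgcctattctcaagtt
Cd247: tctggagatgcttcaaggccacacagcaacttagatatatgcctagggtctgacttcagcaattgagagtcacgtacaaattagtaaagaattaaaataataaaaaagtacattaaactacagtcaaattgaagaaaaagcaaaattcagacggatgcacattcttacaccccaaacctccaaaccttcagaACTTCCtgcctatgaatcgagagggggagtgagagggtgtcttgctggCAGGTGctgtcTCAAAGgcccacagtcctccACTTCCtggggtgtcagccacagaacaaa
Prkcq: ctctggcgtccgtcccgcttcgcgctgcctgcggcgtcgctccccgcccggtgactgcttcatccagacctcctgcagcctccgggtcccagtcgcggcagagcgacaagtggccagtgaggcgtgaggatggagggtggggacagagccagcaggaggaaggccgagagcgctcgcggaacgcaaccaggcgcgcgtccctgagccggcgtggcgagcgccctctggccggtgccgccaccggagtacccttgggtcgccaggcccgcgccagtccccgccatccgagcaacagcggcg

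The Cd247 window held 4 matches, 2 of them ETS, 1 E box and 1 TCF/LEF. The Bcl11b window held 1 ETS and 1 TCF/LEF match, and no match overlapped another. The Themis and Prkcq windows held 0 of these letters. Among the members not printed, the Bank1 window held 1 ETS and 1 E box match and the Pax5 window 0. Over 32851 windows of the same length, 23.8% held the ETS letters, 20.2% the E box, 16.8% the RUNX letters, 16.003% the TCF/LEF letters and 11.2% the GATA letters. The Prkcq window had a GC content of 73.0%, against 43.0% for Bcl11b, 43.7% for Cd247 and 47.3% for Themis. A match describes the letters of this window and not a bound site.

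Themis (chr10:28668327-28883820, plus strand, protein-coding) had 272 adult and 16 aged reads. This corresponded to 27.9 RPM (24.7 to 31.4) and 2.76 RPM (1.58 to 4.48). The aged level was 10.1-fold lower (6.12 to 17.97), a ratio of 0.0988. Of all genes with at least 20 summed reads, 92 had a ratio as low or lower, or 0.571%. No other locus of the tables overlaps Themis.

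Bcl11b (chr12:107910403-108004139, minus strand, protein-coding) had 85 reads in the adult library, 8.72 RPM (6.97 to 10.8). The aged library held 1 read, 0.172 RPM (0.00436 to 0.960). The ratio was 0.0198 with an interval of 0.000494 to 0.113, so that its size rests on a single aged read. Only 26 of the 16119 genes had a ratio as low or lower. Its locus overlaps no other.

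Skap1 (chr11:96464570-96759622, plus strand, protein-coding) had 172 and 30 reads. Its adult level was 17.6 RPM (15.1 to 20.5) and its aged level 5.17 RPM (3.49 to 7.38). The ratio was 0.293 (0.192 to 0.433). The locus overlaps Gm38448, with 34 adult and 2 aged reads, and Gm38960, with 8 and 3. Whether strand was used in counting is not given in the sources used here, and without it the reads of overlapping loci cannot be divided.

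Cd247 (chr1:165779942-165871153, plus strand, protein-coding) had 80 and 19 reads. Its adult level was 8.21 RPM (6.51 to 10.2) and its aged level 3.27 RPM (1.97 to 5.11), a ratio of 0.399 (0.228 to 0.664). Cd247 shares 6004 bp with Pou2f1, which had 1006 and 384 reads, more than Cd247 itself, and was called lower too with a ratio of 0.641 (0.568 to 0.722). It also overlaps Gm32999, with 14 adult reads and 1 aged read. How many of the Cd247 reads belong to these loci is not known. Scaled to the pan-leukocyte genes, the ratio of Cd247 was 0.701 and its call was lost, while without Inpp4b on that scale it was 0.350. Skap1 and Themis, at 0.515 and 0.174 on the same scale, remained past 1.5-fold.

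Prkcq (chr2:11171904-11301226, plus strand, protein-coding) had 198 adult and 174 aged reads. The level was 20.3 RPM (17.6 to 23.3) and 30.0 RPM (25.7 to 34.8), a ratio of 1.48 (1.197 to 1.82) that lay just under 1.5. Scaled to the median gene in place of the library total, it was 1.27. Scaled to the pan-leukocyte genes described with the leukocyte lists, it was 2.59, past 1.5-fold, and 1.30 when Inpp4b, which dominates that scale, was left out. On the library total Prkcq was the only T member with more RPM in the aged library, and it supplied 72.5% of the aged T reads.

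Summed over the 5 T genes, the adult library had 807 reads, 82.8 RPM (77.2 to 88.7), and the aged library 240 reads, 41.3 RPM (36.3 to 46.9). The ratio of the sums was 0.499 (0.430 to 0.577). It was 0.878 on the pan-leukocyte scale, within 1.5-fold, and 0.438 on that scale without Inpp4b. Without Prkcq, the sums were 62.5 RPM (57.6 to 67.6) and 11.4 RPM (8.79 to 14.5), and the ratio was 0.182 (0.139 to 0.235). In pooled nuclei, fewer nuclei of a type and less RNA per nucleus cannot be told apart.

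Bank1 (chr3:136053363-136326141, minus strand, protein-coding) had the most reads of all members, 404 from the adult and 197 from the aged heart. Its level was 41.4 RPM (37.5 to 45.7) and 33.9 RPM (29.4 to 39.0), and the intervals overlapped. The ratio was 0.819 (0.687 to 0.973). It was 0.703 when scaled to the median gene and 0.719 when scaled to the pan-leukocyte genes without Inpp4b. Of the scales tried, only the pan-leukocyte scale with Inpp4b, which gives most of its reads, turned it above 1, to 1.44.

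Pax5 (chr4:44526269-44710440, minus strand, protein-coding) had 19 and 16 reads, or 1.95 RPM (1.17 to 3.04) and 2.76 RPM (1.58 to 4.48). The ratio of 1.41 had an interval of 0.680 to 2.90, so a difference was not detectable at this depth. The locus overlaps LOC102632357, with 2 and 4 reads. The adult B sum was 43.4 RPM (39.4 to 47.7) and the aged B sum 36.7 RPM (31.9 to 42.0), of which Bank1 gave 95.5% and 92.5%. The ratio of the B sums was 0.845 (0.714 to 0.999), within 1.5-fold, and it turned above 1 under some alternatives. For each T read the adult library had 0.524 B reads and the aged library 0.887, a ratio of 1.69 (1.35 to 2.12, exact conditional interval of the odds ratio). This value rests on the most-read gene of each group, being 7.77 without Prkcq and Bank1, and it was 4.87 from geometric means.

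**Figure D2:**
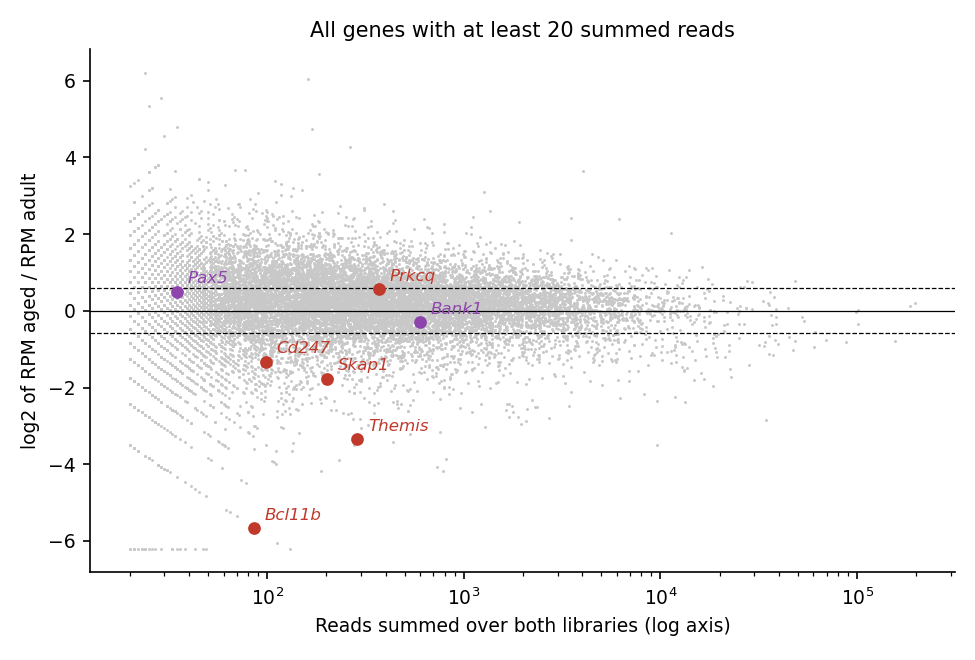
Difference between the libraries (log2 of RPM aged over RPM adult) against reads summed over both libraries (log axis) for the 16119 genes with at least 20 summed reads in grey, T members in red and B members in purple. Dashed lines mark 1.5-fold and values beyond the limits are drawn at the edge. Bcl11b and Themis lie at the lower border of the genes with similar reads, while Prkcq, Bank1 and Pax5 lie within the dashed lines.

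Levels were compared between members per 100 kb of locus, since longer loci collect more reads. The density of SNPs in a locus, which also sets the reads, was not known. In the adult library the order was Prkcq (15.7 RPM per 100 kb), Bank1 (15.2), Themis (12.9), Bcl11b (9.30), Cd247 (9.00), Skap1 (5.98) and Pax5 (1.06). Neighbours in this order had overlapping intervals from Prkcq down to Cd247, and Skap1 and Pax5 each lay below the gene before. In the aged library the order was Prkcq (23.2), Bank1 (12.4), Cd247 (3.59), Skap1 (1.75), Pax5 (1.496), Themis (1.28) and Bcl11b (0.184). Prkcq and Bank1 were each separate from the next gene there, and the neighbours from Cd247 to Bcl11b overlapped. Themis moved from rank 3 to rank 6.

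The loci beside the members were given as a reference for the chromosome region, each being the nearest with at least 20 reads in both libraries. Themis lies between Ptprk, with a ratio of 0.742 (0.713 to 0.772), and 9330159F19Rik, with 3.56 (2.33 to 5.51), both above its own 0.0988. The neighbours of Bcl11b, Vrk1 at 1832 kb and Setd3 at 102 kb, had ratios of 0.894 and 1.07. Those of Skap1, Hoxb3 and Snx11, had 1.52 and 1.64, and those of Cd247 outside its overlaps, Creg1 and Dusp27, had 0.938 and 0.911. No neighbour of these 4 genes was called lower, beside 17.0% of all genes. 9330159F19Rik, Hoxb3 and Snx11 were called higher, beside 28.1% of all genes. Of the loci that overlap the 4 genes, Gm38448 (0.0988) and Pou2f1 (0.641) were called lower. With so few loci, the part of the chromosome region was not tested. Beside Bank1, Slc39a8, a zinc and manganese transporter, had 165 adult and 20 aged reads and a ratio of 0.204 (0.121 to 0.325), lower than that of Bank1, while Ppp3ca on the other side had 1.09.

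Other genes of T cell identity were called lower more often than higher, beside 17.0% lower and 28.1% higher over all genes. Of 25 genes in the list, 20 were listed and 11 had at least 20 summed reads, of which 6 were called lower, 2 higher and 3 neither, with a median ratio of 0.494. Cd3d, a chain of the receptor complex, had 23 adult reads and 1 aged read, a ratio of 0.0730 (0.00177 to 0.450). Tcf7, a factor of early T cells, had 29 and 4 reads and a ratio of 0.232 (0.0592 to 0.659). Its partner Lef1 had 148 and 41 reads and a ratio of 0.465 (0.321 to 0.661). The costimulatory receptor Cd28 had 351 and 65 reads, a ratio of 0.311 (0.235 to 0.406), and the checkpoint receptor Ctla4 had 51 and 15, a ratio of 0.494 (0.258 to 0.892). Tox had 1133 and 293 reads and a ratio of 0.434 (0.381 to 0.494). Thy1, which fibroblasts also express, and Cd5 were called higher, with ratios of 2.45 (1.56 to 3.88) and 4.56 (1.83 to 12.8) from 35 and 51 and from 7 and 19 reads. Rora had the most reads of the list, 35907 and 17766, and a ratio of 0.831. Rora is expressed in many cell types.

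The CD3 and CD8 chains of T cells had few adult reads and almost no aged reads. The 3 CD3 chains and the 2 CD8 chains, a set put together after their values were seen, had 63 adult reads and 1 aged read in all, 6.46 and 0.172 RPM. In the aged library Cd3e, Cd3g, Cd8a and Cd8b1 had no read, as had Il7r. Cd8b1 had 17 adult reads and was 3.38-fold lower when the aged library is set to a floor of 3 reads. With 9 adult reads each, Cd3e, Cd8a and Il7r were 1.79-fold lower on the same floor. Cd3g, with 5 adult reads, had too few for such a value. These values leave out the counting error of the adult reads and are not lower limits. Cd4, which is outside this set, had 8 and 5 reads and a ratio of 1.05 (0.270 to 3.64).

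Genes that act in T cell receptor signalling, many of them shared with other cells, were called in both directions. So were all genes, with 17.0% called lower and 28.1% called higher. All 24 were listed and 19 had at least 20 summed reads, of which 4 were called lower, 6 higher and 9 neither, with a median ratio of 1.199. The adaptor Grap2 (25 and 5 reads, ratio 0.336, 0.100 to 0.893), Camk4 (131 and 33, 0.423) and Nfatc2 (889 and 286, 0.540) were among those called lower. Lck, the kinase that phosphorylates the zeta chain, had 42 and 25 reads and a ratio of 0.999 (0.584 to 1.68). Fyn had 1907 and 1740 reads and a ratio of 1.53 (1.43 to 1.64), Malt1 1.60, Nfatc1 2.16 (1.90 to 2.46) and Ptpn6 5.37 (1.88 to 18.8) from 5 and 16 reads. Cblb, with 3826 and 2572 reads, had a ratio of 1.13.

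Killer cell genes were near the limit of detection. Of 13 genes in the list, 9 were listed, with 31 adult and 23 aged reads together, and only Prf1 reached 20 summed reads, with 9 and 15 and a ratio of 2.80 (1.147 to 7.25).

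The other B cell genes were more often called higher than lower, as were all genes (28.1% higher and 17.0% lower). Of 22, 18 were listed and 9 had at least 20 summed reads, of which 5 were called higher, 2 lower and 2 neither, with a median ratio of 1.66. Fcmr, the receptor for IgM, had 59 and 113 reads and a ratio of 3.22 (2.33 to 4.48). Pou2af1, a coactivator of B cells, had 6 and 21 reads and a ratio of 5.88 (2.29 to 17.8), Cd37 had 14 and 23 and 2.76 (1.36 to 5.80), and Fcer2a had 17 and 21 and 2.07 (1.04 to 4.19). Bcl11a, the paralog of Bcl11b, was lower, with 190 and 47 reads and a ratio of 0.415 (0.295 to 0.574), as was Bach2 with 1920 and 631 and 0.552. Ebf1, which pericytes and fat cells also express, had 10902 and 5834 reads and a ratio of 0.898. Markers restricted to B cells were sparse, Ms4a1 having 4 and 5 reads, Cd79a 9 and 9, and Cd79b 3 and 2.

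Of the 15 B cell receptor signalling genes, all with at least 20 summed reads, 10 were called higher, 0 lower and 5 neither. Over all genes 28.1% were called higher and 17.0% lower. The median ratio of the list was 1.78. Ptprj had a ratio of 3.07 (2.33 to 4.07), Fcgr2b, the inhibitory Fc receptor, of 2.34 (1.76 to 3.13) and Inpp5d of 2.27 (1.93 to 2.66). Lyn had 686 and 672 reads and a ratio of 1.64, and Cd72 9 and 21 reads and 3.92 (1.72 to 9.72). The most-read genes beside Lyn were not called, Syk having 815 and 434 reads and a ratio of 0.894, Vav2 491 and 367 and 1.25, and Dapp1 428 and 259 and 1.02. Many of these genes are also active in macrophages. Of the plasma cell genes, 2 of 8 reached 20 summed reads, Xbp1 with a ratio of 2.28 (1.70 to 3.08) and Irf4 with 80 and 5 reads and a ratio of 0.105 (0.0332 to 0.255). Jchain had 4 adult reads and 1 aged read.

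Calls of pan-leukocyte genes are set beside the 28.1% of all genes called higher and the 17.0% called lower. Of 16 pan-leukocyte genes, 13 had at least 20 summed reads, of which 1 was called lower, 4 higher and 8 neither, with a median ratio of 1.25. Ptprc, the common leukocyte antigen CD45, had 233 and 190 reads and a ratio of 1.37, Arhgap15 had 1.06, Dock2 1.05 and Dock10 1.02. The gene called lower was Inpp4b, which with 9138 of the 12025 adult reads sets the sum of the list. The summed level was 1234 RPM in the adult and 702 RPM in the aged library with Inpp4b, and 296 and 337 RPM without it. Of 12 macrophage genes with at least 20 summed reads, 8 were called higher and 0 lower, with a median ratio of 1.67 and summed levels of 433 and 690 RPM. F13a1 had a ratio of 1.62, Mrc1 of 1.63, and C1qa had 2.51 (1.996 to 3.17). Markers of several cell types that are no leukocytes were also called higher more often than lower. Of 7 pericyte and smooth muscle genes 6 were called higher and 0 lower, with summed levels of 210.3 and 493 RPM. Of 10 fibroblast genes 6 were called higher and 1 lower, with sums of 774 and 1232 RPM. Of 10 endothelial genes 4 were called higher and 0 lower, with sums of 1044 and 1537 RPM, and of 9 lymphatic, adipocyte and glial genes 4 and 0. The 10 cardiomyocyte genes, with sums of 28656 and 26959.6 RPM, had 2 called higher and 2 lower. The part of these markers in the T and B values was not tested. Paralogs of the members with broader expression had Skap2 at a ratio of 1.32, Prkch at 1.18, Prkca at 1.33, Prkce at 0.838 and Prkcd at 2.54.

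**Figure D3:**
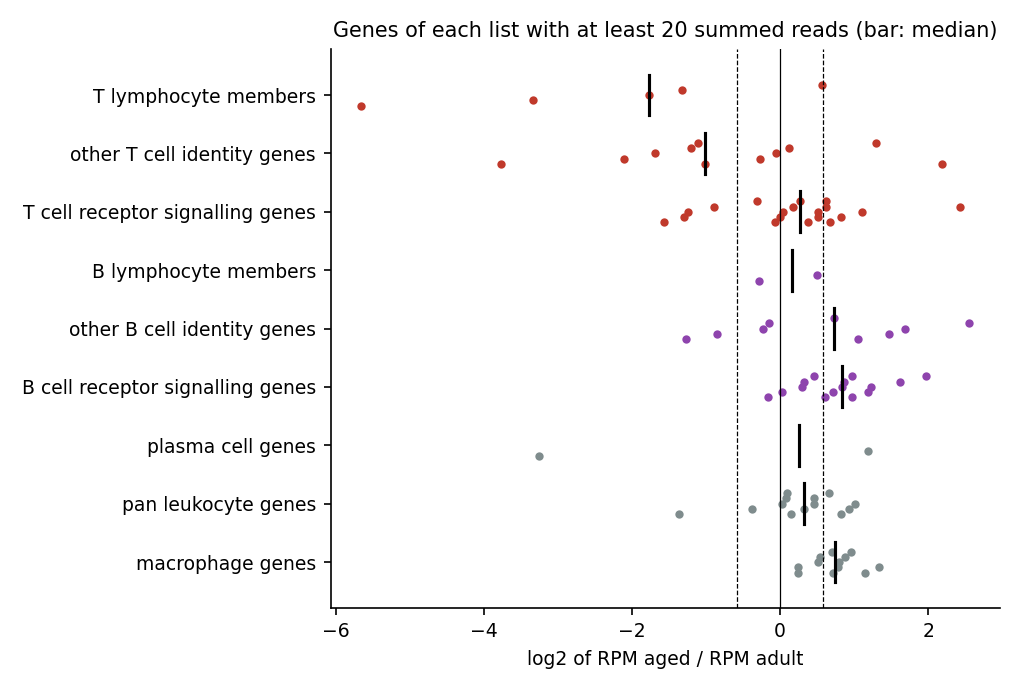
Ratio of the libraries (log2 of RPM aged over RPM adult) for each gene with at least 20 summed reads, by list, with the median as a bar and 1.5-fold as dashed lines. The T members and the other T identity genes have medians of 0.293 and 0.494 as ratios, left of the lower dashed line, and the macrophage genes have no point left of 0.

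Genes of immature lymphocytes had reads in the adult library and few in the aged. Rag1 and Rag2, which cut the antigen receptor genes, Ptcra, the receptor chain of thymocytes before the alpha chain, and Dntt, which adds bases at the joints, were chosen after the T values were seen. They had 17, 9, 6 and 9 adult reads and 0, 2, 1 and 0 aged reads, together 4.21 and 0.517 RPM (ratio 0.123, 0.0243 to 0.385). Rag1 was 3.38-fold lower on the floor of 3 reads, which again is not a lower limit. Genes of the thymic epithelium, chosen at the same time (Foxn1, Psmb11, Aire and Epcam), had 18 adult and 5 aged reads, 1.85 and 0.861 RPM (ratio 0.466, 0.135 to 1.30), and none of the 4 was at 0 in either library. The part of either gene set in the T values was not tested.

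The allelic ratio, the share of BL6 reads from 0 to 1, was taken where a gene had at least 20 reads. This was met by 6 members in the adult library and by 3, Skap1, Prkcq and Bank1, in the aged library. All members are autosomal. The autosomal genes together had an allelic ratio of 0.534 (adult) and 0.538 (aged), against which the allelic ratio of each member was set.

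Themis had an adult allelic ratio of 0.522 (exact 95% interval 0.461 to 0.583), from 142 BL6 and 130 CAST reads, and Bcl11b of 0.506 (0.395 to 0.616), from 43 and 42. Cd247 had 0.638 (0.522 to 0.742) and Prkcq 0.566 (0.494 to 0.636). The intervals of these 4 genes included the autosomal allelic ratio. Skap1 lay above it with 0.674 (0.599 to 0.744), from 116 BL6 and 56 CAST reads, and Bank1 with 0.584 (0.5344 to 0.633), whose lower limit only just passed the autosomal 0.5338. An interval wholly above the autosomal allelic ratio was found for 2 of 6 members, and for 22.7% of the autosomal genes with at least 20 adult reads.

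In the aged library all 3 members with enough reads had intervals wholly above the autosomal allelic ratio. Such an interval was found for 22.4% of the autosomal genes with at least 20 aged reads. Skap1 had 0.867 (0.693 to 0.962), from 26 BL6 and 4 CAST reads. Prkcq had 0.672 (0.597 to 0.742), from 117 and 57, and Bank1 0.685 (0.615 to 0.749), from 135 and 62.

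The allelic ratio of these 3 genes was higher in the aged library by 0.192 for Skap1 (Newcombe 95% interval 0.0161 to 0.301), by 0.107 for Prkcq (0.00772 to 0.202) and by 0.101 for Bank1 (0.0185 to 0.179). An interval above 0 was found for 13.7% of the 12390 autosomal genes with at least 20 reads in both libraries. These intervals again hold no spread between animals, and the lower limits for Skap1 and Prkcq lie close to 0. Members below 20 aged reads were Themis with 10 BL6 and 6 CAST reads, Cd247 with 8 and 11, Bcl11b with 0 and 1, and Pax5 with 11 and 5, after 15 and 4 in the adult library. No allelic ratio was taken for them.

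**Figure D4:**
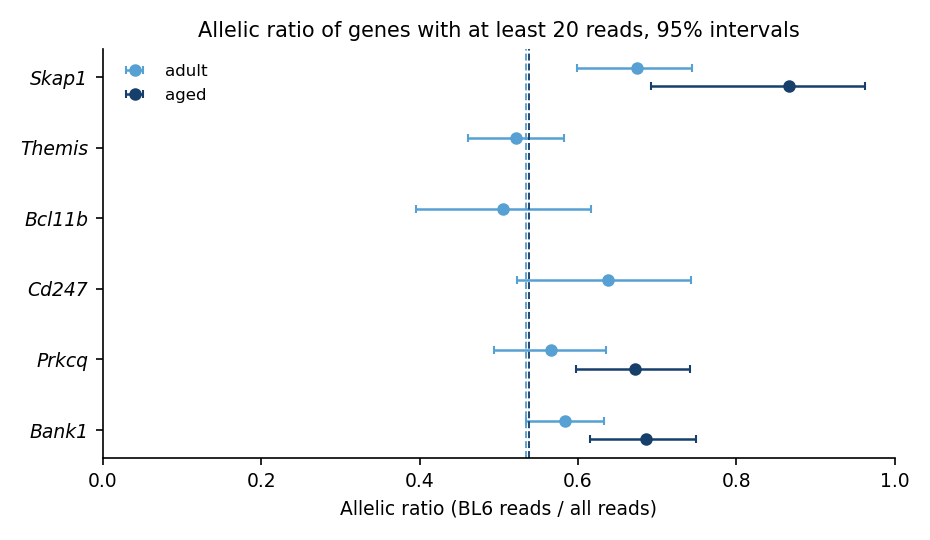
Allelic ratio (BL6 reads over all reads) of members with at least 20 reads, with exact 95% intervals, 1 library per age. Dashed lines give the autosomal allelic ratio of the adult (0.534) and the aged library (0.538). Skap1, Prkcq and Bank1 lie to the right of both lines in the aged library.

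Taken allele by allele, on the scale of all reads, Bank1 had nearly the same BL6 level in both libraries, 24.2 RPM (21.2 to 27.5) and 23.3 RPM (19.5 to 27.5). Its CAST level was 17.2 RPM (14.7 to 20.05) against 10.7 RPM (8.19 to 13.7) with age, and these intervals were separate. For Prkcq it was the BL6 level that was higher in the aged library, 11.5 RPM (9.46 to 13.8) against 20.2 RPM (16.7 to 24.2), while the CAST level was 8.82 RPM (7.06 to 10.9) and 9.82 RPM (7.44 to 12.7). Skap1 was lower on both alleles, with a ratio of 0.376 (0.236 to 0.580) for BL6 and 0.120 (0.0316 to 0.325) for CAST, and the intervals of these ratios overlapped. Themis was lower on both alleles to a similar degree, with ratios of 0.118 (0.0555 to 0.224) and 0.0775 (0.0279 to 0.173). Cd247 had a ratio of 0.263 (0.108 to 0.559) for BL6 and 0.637 (0.287 to 1.31) for CAST. Its CAST interval included 1, and the intervals of its 2 ratios overlapped. Bcl11b had 43 adult reads from BL6 and 42 from CAST, and its single aged read was from CAST.

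**Figure D5:**
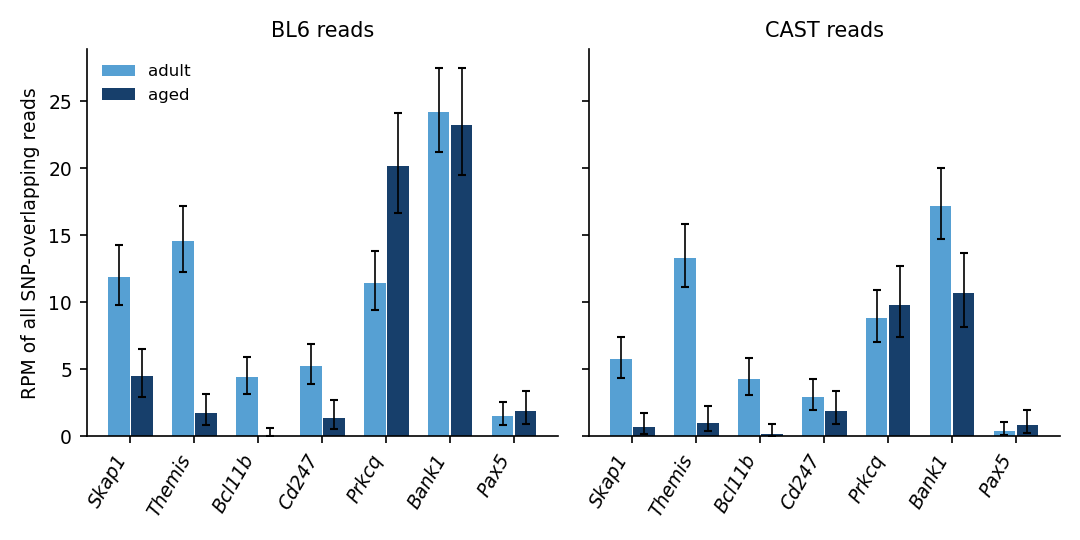
BL6 reads (left) and CAST reads (right) of each member in RPM of all SNP-overlapping reads, bars with 95% Poisson intervals, 1 library per age. Themis, Bcl11b and Skap1 are lower in the aged library on both alleles, Prkcq is higher in BL6 reads, and Bank1 is lower in CAST reads.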

How the data were processed

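Single-nucleus RNA-seq of 1 adult and 1 aged heart was analysed from the tables that the authors deposited. The authors aligned reads to mm10 with Cell Ranger 7.1.0, split them by nucleus with sinto, pooled nuclei with a BL6 active X chromosome and counted alleles per RefSeq gene with Allelome.PRO2 at SNPs between BL6 and CAST. Processing notes of the submitters also name Seurat 5.1.0. The deposited read counts per gene (BL6, CAST, total) are not normalized, and introns and exons are not separated. The authors corrected the expression matrices for ambient RNA with CellBender and removed doublets from them with DoubletFinder. The allelic counts were made from the Cell Ranger alignments and not from the corrected matrices, so the correction does not apply to them. Whether the pooled nuclei were limited to those left after doublet removal, and whether duplicate reads were collapsed, is not given in the sources used here. The deposited allelic ratio is a fraction rounded to 2 decimals, and it was recomputed from the reads. The deposited allelic score was not used. Starts in the tables count from 0 and are printed from 1. GENCODE M21 gave strands and gene types.

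Groups follow the age in the labels. The file of the aged heart carries another age in its name, and the label was used. The members and gene lists were chosen with earlier results of these data known. All 7 listed members are named. Of each list, genes with the most reads and lymphocyte or leukocyte genes past 2-fold are named. Genes withheld from the text are counted in their lists and not reported singly. Other genes were chosen after their values were seen, among them the CD3 and CD8 chains and the genes of immature lymphocytes and thymic epithelium. Analyses used Python 3.11.15 with scipy 1.17.1, and the interval functions were tested on simulated data. Other scales, thinning of the adult reads, other read minimums, single alleles and left-out members were tried as alternatives.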

Additional observations from a re-analysis of the deposited data

How the results depend on the processing

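For the 7 summed results, 25 of 39 alternatives stayed within the interval of the value reported, and for single members 55 of 60. The ratio of the T sum was 0.429 scaled to the median gene and 0.878 scaled to the pan-leukocyte genes. It was 0.182 without Prkcq, 0.222 as a geometric mean, 0.583 in BL6 reads, 0.387 in CAST reads and 0.578 without members that overlap other loci. It was below 1 in each. With Inpp4b left out of the pan-leukocyte genes, an alternative chosen after seeing the data, it was 0.438. The ratio of the B sum turned above 1 scaled to the pan-leukocyte genes (1.49; 0.742 without Inpp4b), without Bank1 (1.41, Pax5 alone) and as a geometric mean (1.08), and was 0.654 in CAST reads. Bank1 alone turned to 1.44 on the pan-leukocyte scale and was 0.719 there without Inpp4b. The ratio of B to T reads was 7.77 without Prkcq and Bank1 and 4.87 from geometric means. The BL6 share of the aged T reads was 0.701 as a sum and 0.770 as a mean of both genes. No paired analysis was possible because each age has 1 library. Thinning the adult reads to the aged total left the T sum within its interval and gave 0.839 for the B sum. Of the 7 members, 4 had fewer than 20 aged reads, and the spread between hearts is unknown.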

Other observations

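Some lymphocyte genes outside the members had allelic ratios far from the autosomal one and alike in both libraries, and others did not. All genes named here were singled out after their values were seen. The share of autosomal genes with such values was not computed. Cd28 had an allelic ratio of 0.188 (0.149 to 0.233) from 351 adult reads and 0.200 (0.111 to 0.318) from 65 aged reads, so most reads came from CAST. Fcmr had 0.966 (0.883 to 0.996) from 59 and 1.00 (0.968 to 1.00) from 113 reads, and the kinase Blk, of B cells, had 0.941 and 0.935 from 118 and 107 reads, nearly all from BL6. Fyn, a kinase of the T cell receptor, differed between the libraries, with 0.662 (0.640 to 0.683) from 1907 adult and 0.494 (0.471 to 0.518) from 1740 aged reads. Fcgr2b differed as well, with 0.640 (0.529 to 0.740) and 0.342 (0.258 to 0.434) from 86 and 120 reads. The directions of Fyn and Fcgr2b were opposite to those of Skap1, Prkcq and Bank1, whose BL6 share was higher in the aged library. Icos (0.194 and 0.450), Thy1 (0.229 and 0.431) and Blnk (0.828 and 0.618) lay far from the autosomal allelic ratio in the adult library. In the aged library they lay nearer to it.

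Antigen presentation genes, which macrophages, dendritic cells and B cells share, were called higher in 3 of 7 cases and lower in 0. Their median ratio was 1.44. Over all genes 28.1% were called higher and 17.0% lower. H2-Ab1 had 64 and 70 reads and a ratio of 1.84 (1.29 to 2.62), while H2-Aa had 95 and 60 and a ratio of 1.06 (0.754 to 1.48).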
